A study of Mus musculus with 3 samples.

Results

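The 10 Toll-like receptor genes Tlr1, Tlr2, Tlr3, Tlr4, Tlr5, Tlr6, Tlr7, Tlr8, Tlr9 and Tlr13 were chosen by their GENCODE M1 gene symbols, out of 22350 protein-coding genes on chromosomes 1 to 19 and X of the mouse genome build mm9. They were followed in a map of RNA polymerase II (Pol_II) phosphorylated on serine 5 of its C-terminal repeat (Ser5), a form of the enzyme that is most abundant near the starts of active genes. The map was made by ChIP-Seq, in which DNA pulled down with an antibody from cross-linked chromatin is sequenced and each aligned read, here called a tag, marks a place where the antigen was bound. The cells were primary macrophages grown in culture from bone marrow of female Fvb mice and used on day 7 of differentiation. One Ser5 library came from untreated cells, one from cells that had received lipopolysaccharide (LPS) at 10 ng/ml for 2 h, and a library of input DNA, chromatin with no immunoprecipitation, came from untreated cells. No input library from LPS-treated cells was analysed here, so both Ser5 libraries were set against the same input. With 1 library for each condition, differences could not be set against the spread between replicates and were not tested. All intervals below are 95% intervals and cover counting error alone.

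Toll-like receptors are membrane proteins that bind microbial products and start inflammatory gene expression. TLR2, which pairs with TLR1 or TLR6 to bind bacterial lipopeptides, TLR4, which binds LPS together with MD-2, and TLR5, which binds flagellin, act at the cell surface. TLR3, TLR7, TLR8, TLR9 and TLR13 act in endosomes and bind nucleic acids: TLR3 double-stranded RNA, TLR7 and TLR8 single-stranded RNA and its breakdown products, TLR9 unmethylated CpG DNA, and TLR13, present in mice and absent in humans, bacterial ribosomal RNA. All but TLR3 signal through the adaptor MyD88. TLR3 uses TRIF, and TLR4 uses both.

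The untreated Ser5, LPS Ser5 and input libraries held 7616771, 6249819 and 7533308 tags on the chromosomes used. Levels are given as normalized tags, which are tags per 1000000 tags of the library, and densities as normalized tags per kb. The cells carried Ser5 at the starts of macrophage genes: all 9 measured genes of a macrophage marker list (among them Csf1r, Itgam, Cd68 and Lyz2) had a Ser5 peak within 1 kb of the start in both libraries, and their untreated density was 4.72 to 104 times input. Of 31 markers of 8 other cell types, 2 had such a peak in either library, S100a8 and Kdr in the untreated one and Camp and Kdr in the LPS one, and Cd3e, Tek, Gata1 and Klrb1c had no untreated tag there. The summed normalized tags of the TSS windows were 645 untreated and 598 after LPS for the macrophage list, and 0.656 to 13.4 untreated and 0.320 to 14.1 after LPS for the 8 other lists. The part of other cells in the results was not tested. All 8 genes of a list of LPS-responsive genes (Ccl5, Tnf, Il1b, Nfkbia, Cxcl2, Il6, Ptgs2 and Irg1) were at least 2-fold higher in the library labelled LPS, with a median ratio of 30.4. Over all coding genes the median ratio of LPS to untreated Ser5 was 0.874 in gene bodies (17386 genes with at least 10 Ser5 tags) and 0.831 within 1 kb of the start (12535 genes), so that ratios below 1 were the more frequent ones throughout the genome.

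To show the DNA where Ser5 near the start differed most, the 300 bases before the annotated start are shown for 4 of the 5 members whose Ser5 near the start differed at least 2-fold between the libraries. These are the promoter of Tlr2, where Ser5 was higher after LPS, and the promoters of Tlr5, Tlr8 and Tlr13, where it was lower. They read 5′ to 3′ in the direction of transcription, from mm9 chr3:83645690-83645989 (minus strand), chr1:184884619-184884918 (plus strand), chrX:163702262-163702561 (minus strand) and chrX:103338243-103338542 (plus strand). Tlr1, the fifth, is left out because a further RefSeq start lies 797 bp upstream, so that the bases before its GENCODE start are downstream of that one. The RefSeq starts of Tlr2 and Tlr13 lie 159 and 71 bp inside the gene, so the bases just before those starts are not shown. Those of Tlr5 and Tlr8 are the GENCODE starts. Capitals mark the letters that match any of 7 motifs searched on both strands.
Tlr2: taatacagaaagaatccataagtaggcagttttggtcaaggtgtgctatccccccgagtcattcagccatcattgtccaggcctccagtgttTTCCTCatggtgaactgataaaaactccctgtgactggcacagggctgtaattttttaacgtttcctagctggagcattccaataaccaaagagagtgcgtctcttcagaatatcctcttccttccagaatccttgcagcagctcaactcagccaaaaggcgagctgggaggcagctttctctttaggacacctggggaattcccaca
Tlr5: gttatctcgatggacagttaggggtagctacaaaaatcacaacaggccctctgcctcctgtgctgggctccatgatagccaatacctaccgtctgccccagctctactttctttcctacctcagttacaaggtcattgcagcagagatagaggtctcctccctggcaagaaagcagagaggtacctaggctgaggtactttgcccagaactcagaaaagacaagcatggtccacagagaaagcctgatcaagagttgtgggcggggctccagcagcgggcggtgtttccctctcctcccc
Tlr8: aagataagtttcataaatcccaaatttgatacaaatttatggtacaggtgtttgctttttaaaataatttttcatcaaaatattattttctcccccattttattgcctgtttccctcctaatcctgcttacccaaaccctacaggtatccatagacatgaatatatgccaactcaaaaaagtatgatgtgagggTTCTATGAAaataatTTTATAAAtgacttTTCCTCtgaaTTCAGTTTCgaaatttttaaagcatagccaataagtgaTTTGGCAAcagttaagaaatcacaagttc
Tlr13: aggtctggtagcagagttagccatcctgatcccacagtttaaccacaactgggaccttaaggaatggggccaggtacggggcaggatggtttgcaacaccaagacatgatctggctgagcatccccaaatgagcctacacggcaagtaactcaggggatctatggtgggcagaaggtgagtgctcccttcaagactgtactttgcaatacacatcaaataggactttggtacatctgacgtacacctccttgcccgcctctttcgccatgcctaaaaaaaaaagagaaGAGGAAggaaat

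The motifs searched were GGGANTTTC (an NF-kB form), GAAANNGAA (ISRE, the element bound by interferon regulatory factors), TTCNNNGAA (GAS, bound by STAT factors), GAGGAA (a form bound by PU.1, the myeloid Ets factor), TGANTCA (AP-1), TTGCNNAA (a C/EBP form) and TATAAA. PU.1 letters were found in 7 of the 10 members' promoters (Tlr1, Tlr2, Tlr3, Tlr4, Tlr8, Tlr9 and Tlr13) and in 26.9% of the 22350 coding promoters of the same length. The letters of this NF-kB form were found in none of the 10 and in 1.11% of all promoters. NF-kB also binds other forms: the degenerate kB consensus, searched on both strands after these sequences had been seen and not marked in capitals, was found in Tlr2 alone among the 10, near the end of the printed sequence, and in 8.90% of all promoters. ISRE letters were found in Tlr8 alone among the members (9.10% of all promoters), GAS letters in Tlr1 and Tlr8 (8.22%), AP-1 letters in Tlr9 (7.12%), C/EBP letters in Tlr7 and Tlr8 (11.2%) and TATAAA in Tlr6, Tlr7 and Tlr8 (14.5%). In Tlr1 the GAS and PU.1 matches overlap. The Tlr8 promoter held matches to 5 of the 7 motifs and was 30.7% G and C, against a median of 53.3% over all promoters. A match describes letters in this window only.

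In untreated macrophages all 10 Toll-like receptor genes had a Ser5 peak within 1 kb of the start, as did 48.0% of coding genes. After LPS, 7 of the 10 had one, against 45.9% of coding genes, and Tlr5, Tlr8 and Tlr13 were the members without it. Within this window (TSS window) untreated Ser5 was at least 2-fold above input at 8 of the 10 members (71.9% of coding genes) and LPS Ser5 at 6 (70.4%). Tlr1 and Tlr5 were the exceptions in untreated cells, with 1.38 and 1.90 times input. After LPS the exceptions were Tlr5 with 0.556, Tlr13 with 1.75, Tlr8 with 1.93 and Tlr9 with 1.98 times input. In the gene body, the whole span of the gene record, untreated Ser5 was at least 2-fold above input at 6 members (37.6% of coding genes) and LPS Ser5 at 4 (32.9%). Scaling the libraries to the tags outside peaks raised the ratio of Ser5 to input at every gene. The counts of members were then 10 (untreated) and 9 (LPS) in the TSS window, and 8 and 9 in the gene body. Shares of coding genes under this scaling are not given, so these counts do not set the members apart from other genes. A peak in the gene body was present at 9 members in each library, against 53.3% of coding genes in the untreated and 50.6% in the LPS list. Tlr1 lacked it in untreated cells and Tlr5 lacked it after LPS.

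The density in the TSS window of untreated cells was highest at Tlr4 with 10.8 normalized tags per kb (9.24 to 12.6), followed by Tlr7 with 10.6, Tlr2 with 9.51, Tlr6 with 8.66, Tlr3 with 6.95, Tlr13 with 6.82, Tlr9 with 5.38, Tlr8 with 3.02, Tlr1 with 1.84 and Tlr5 with 1.64. Counting intervals of neighbours in this order overlapped except between Tlr9 (4.28 to 6.68) and Tlr8 (2.21 to 4.03). After LPS Tlr2 stood first with 23.7 normalized tags per kb (21.0 to 26.5), apart from Tlr6 with 9.44, Tlr3 with 8.64, Tlr4 with 7.68, Tlr7 with 5.52, Tlr1 with 4.96 and Tlr9 with 4.08. Tlr8 and Tlr13 followed at 1.28 and Tlr5 at 0.480. In the LPS library the intervals of neighbours were apart between Tlr2 and Tlr6 (7.81 to 11.3) and between Tlr9 (3.04 to 5.36) and Tlr8 (0.731 to 2.08). Input densities in this window ran from 0.663 to 2.06 normalized tags per kb. The plot of densities by gene and library shows these levels.

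**Figure D1:**
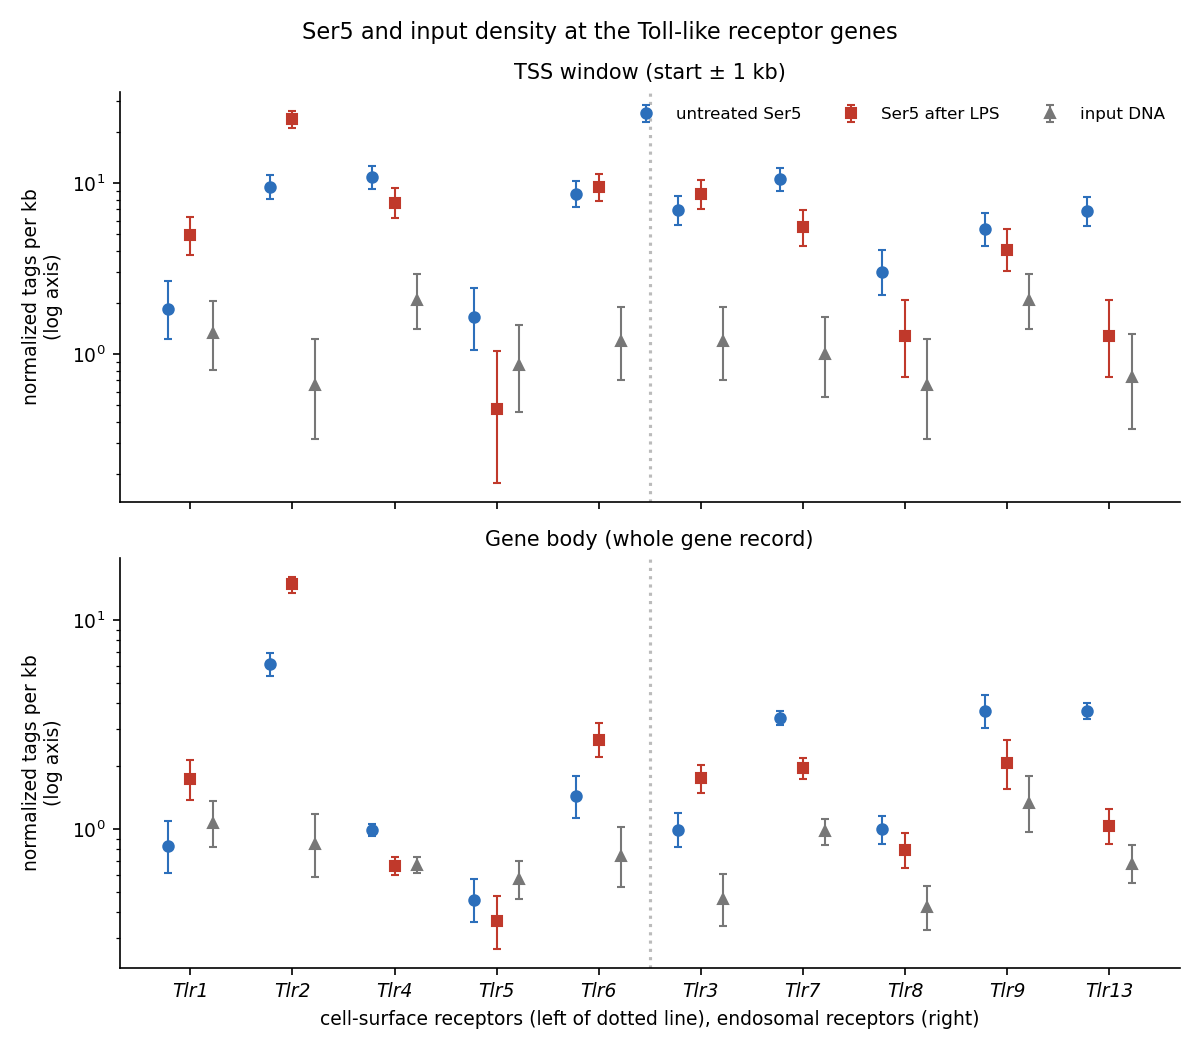
Normalized tags per kb (log axis) in the TSS window (top) and gene body (bottom) of the 10 genes, in untreated Ser5 (circles), Ser5 after LPS (squares) and input DNA (triangles), 1 library each, with 95% counting intervals. In the TSS window Tlr2 went from 9.51 to 23.7 and Tlr13 from 6.82 to 1.28 normalized tags per kb.

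The 10 genes fell on both sides of the genome-wide median after LPS. In the gene body the ratio of LPS to untreated Ser5 ran from 0.278 at Tlr13 to 2.40 at Tlr2, with a median of 0.793, 4 members above 1 and 6 below. Tlr1, Tlr2, Tlr3 and Tlr6 were above 1, and Tlr4, Tlr5, Tlr7, Tlr8, Tlr9 and Tlr13 were below. The same 4 and 6 genes lay above and below 1 in the TSS window, where the ratios ran from 0.187 at Tlr13 to 2.70 at Tlr1 with a median of 0.734. Over all coding genes 36.6% were above 1 in the gene body and 31.0% in the TSS window. By the 2-fold rule 2 members were higher in the gene body, Tlr1 and Tlr2, against 5.83% of coding genes, and 1 was lower, Tlr13, against 11.3%. In the TSS window 2 were higher, again Tlr1 and Tlr2, against 5.58%, and 3 were lower, Tlr5, Tlr8 and Tlr13, against 14.1%. Some of these calls in the TSS window depended on where the window was set. With the merged windows of all annotated starts, Tlr5 (0.542) and Tlr8 (0.529) were no longer called lower and Tlr7 (0.474) was. Within 2 kb of the start Tlr8 (0.572) and Tlr1 (1.98) were not called. At the RefSeq start 797 bp upstream Tlr1 (1.88) was not called either. At the RefSeq start 62 bp inside the GENCODE one it was (2.74, 1.73 to 4.45). Tlr2 and Tlr13 were called within 2 kb and with the merged windows too. The ratio plot places each member over the distribution of all coding genes.

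**Figure D2:**
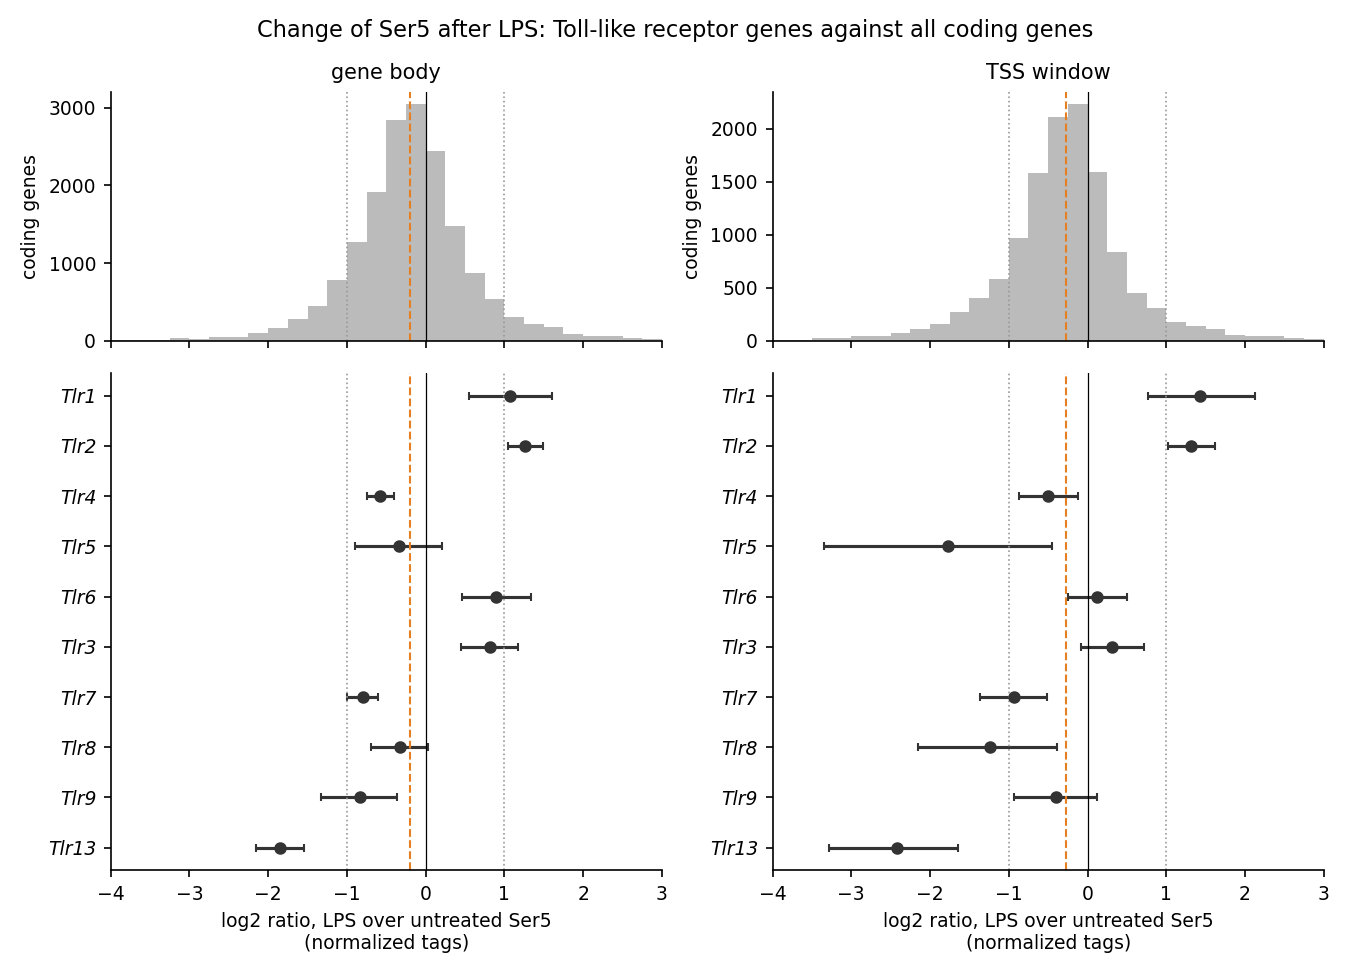
Log2 ratio of LPS to untreated Ser5 for the gene body (left) and TSS window (right): histograms of all coding genes with at least 10 Ser5 tags (top) and the 10 members with 95% counting intervals (bottom). The dashed line is the median of all coding genes (0.874 and 0.831 as ratios), dotted lines mark 2-fold, and Tlr13 lies lowest in both panels.

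Among the receptors for lipopeptides, Tlr2 (chr3:83640195-83645689, minus strand), the shared partner of TLR1 and TLR6, held the most Ser5 after LPS. Its gene body had 257 untreated, 507 LPS and 35 input tags, which is 33.7, 81.1 and 4.65 normalized tags. LPS Ser5 was 2.40 times untreated Ser5 (2.07 to 2.80), a higher ratio than at 96.0% of the coding genes measured. The gene was already at 7.26 times input before treatment and reached 17.5 times input after LPS, so its 2 Ser5 levels were both well above the background and their intervals did not overlap. The TSS window had 145 untreated, 296 LPS and 10 input tags, a ratio of 2.49 (2.03 to 3.06).

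The excess of Ser5 at Tlr2 after LPS extended over the whole gene and beyond its end. Untreated peaks covered 38.3% of the gene body and LPS peaks 89.8%. The 5 kb after the annotated end had 70 untreated and 139 LPS tags (ratio 2.42, 1.80 to 3.27), and between 1 and 5 kb upstream there were 38 and 83 (2.66, 1.79 to 4.02). Of these upstream tags, 67 of the 83 after LPS and 16 of the 38 in untreated cells lay in a region of 912 bp with a peak in both libraries, centred 3339 bp before the start, which had 9 input tags (ratio 5.10, 2.93 to 9.44). This was a larger ratio than at any other peak region of Tlr2, and the nearest other annotated gene lies 52647 bp away. Its interval overlapped that of a region 2137 bp past the end, found after LPS only (4.18, 2.27 to 8.21). In tags the region over the start differed more, with 143 untreated and 291 LPS tags (2.48, 2.02 to 3.05).

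The central 300 bases of this upstream region are given on the strand of Tlr2 (mm9 chr3:83648878-83649177, minus strand). They were chosen because the region had the largest ratio among the peak regions of Tlr2. They contain none of the 7 motifs, so no letter is in capitals. For comparison, the central 300 bases of the 49371 LPS peaks on these chromosomes held the NF-kB letters in 1.22% and the PU.1 letters in 29.6%.
Tlr2 upstream region: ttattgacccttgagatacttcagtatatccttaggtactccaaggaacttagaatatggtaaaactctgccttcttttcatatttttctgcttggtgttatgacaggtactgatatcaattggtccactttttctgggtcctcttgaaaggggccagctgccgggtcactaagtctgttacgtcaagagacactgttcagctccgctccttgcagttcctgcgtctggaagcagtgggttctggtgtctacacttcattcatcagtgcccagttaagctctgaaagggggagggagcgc

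Tlr1 (chr5:65316050-65324000, minus strand) was low in untreated cells. Its gene body had 50 untreated, 86 LPS and 64 input tags, a ratio of LPS to untreated Ser5 of 2.10 (1.46 to 3.03). The untreated level was 0.773 times input (0.523 to 1.14) and the LPS level 1.62 times input (1.16 to 2.27). With libraries scaled to all tags, only the treated library thus lay above the input by more than counting error. Scaling to the tags outside peaks raises both levels against input. Around the start, in the TSS window, there were 28, 62 and 20 tags, a ratio of 2.70 (1.70 to 4.38). The gene beyond its first 1 kb had 41 and 57 (1.69, 1.11 to 2.60), an interval that overlaps that of the TSS window. A region centred 339 bp inside the gene, found by its peak after LPS only and so chosen for a high LPS count, had 6 untreated and 26 LPS tags (5.28, 2.13 to 15.7). The RefSeq annotation places another Tlr1 start 797 bp upstream, found on mm9 by its sequence, and a peak in both libraries lay there (13 and 23 tags, 2.16, 1.05 to 4.63). A pair of peak regions 1055 and 1654 bp past the end of Tlr1 had a different course, with 23 and 41 untreated against 14 and 39 LPS tags (ratios of 0.742 and 1.16, both with 1 inside the interval).

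Tlr6 (chr5:65344345-65351287, minus strand), the neighbour of Tlr1 with its start 27287 bp away, had 76 untreated, 116 LPS and 39 input tags in the gene body, a ratio of 1.86 (1.38 to 2.52). In its TSS window 132 untreated and 118 LPS tags gave 1.09 (0.843 to 1.41), which differs from 1 by less than counting error. A peak region centred 1004 bp before the start, which crosses the upstream edge of this window, had 140 untreated and 80 LPS tags (0.696, 0.522 to 0.923), whereas the region over the start and the first part of the gene had 76 and 88 (1.41, 1.03 to 1.94). RefSeq gives a further start 882 bp inside the gene, and within 300 bp of it there were 13 untreated and 41 LPS tags (3.84, 2.02 to 7.82), against 44 and 34 within 300 bp of the GENCODE start (0.942, 0.584 to 1.51). Past the first 1 kb the gene had 23 untreated, 50 LPS and 31 input tags, a ratio of LPS to untreated Ser5 of 2.65 (1.59 to 4.55). With libraries scaled to all tags, untreated Ser5 there was 0.734 times input (0.409 to 1.30) and LPS Ser5 1.94 times (1.22 to 3.15). The density of the TSS window over that of the later gene body accordingly went from 17.0 in untreated cells to 7.01 after LPS.

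Tlr1 and Tlr6 share near-identical coding sequence, in which tags cannot be assigned to 1 gene. Over an aligned stretch of 910 bp they were identical at 900 positions, and 67.3% of its 30-base sequences, the length of the LPS tags, occurred more than once in the genome. The longest identical run, in the coding exon of both genes, is 229 bases (Tlr1 at chr5:65316776-65317004, Tlr6 at chr5:65345067-65345295) and is printed on their coding strand to show what uniquely aligned tags cannot cover.
Tlr1 and Tlr6: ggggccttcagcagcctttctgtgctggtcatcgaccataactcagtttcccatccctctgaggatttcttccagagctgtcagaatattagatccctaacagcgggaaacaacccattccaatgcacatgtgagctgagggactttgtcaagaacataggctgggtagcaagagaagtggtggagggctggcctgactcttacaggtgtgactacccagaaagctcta
In this stretch Tlr1 had 1 untreated, 1 LPS and no input tag, and Tlr6 had no untreated, 1 LPS and 1 input tag. Without it the gene body ratios were 2.11 at Tlr1 and 1.84 at Tlr6, against 2.10 and 1.86 with it.

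Tlr4 (chr4:66488618-66591318, plus strand) encodes the receptor for LPS itself. Its record spans 102701 bp because of a single long transcript, while the transcript with the largest coding part spans 15217 bp. The whole record had 774 untreated, 427 LPS and 522 input tags and a ratio of 0.672 (0.596 to 0.758). The coding transcript had 334, 188 and 96 tags, a ratio of 0.686 (0.571 to 0.823), with untreated Ser5 at 3.44 and LPS Ser5 at 2.36 times input. Its TSS window, with 165 untreated, 96 LPS and 31 input tags, gave 0.709 (0.545 to 0.917). Both Ser5 levels thus stayed above input at the start of Tlr4, the lower one in the LPS library, and none of these ratios reached the 2-fold rule. Of the coding genes measured, 25.7% had a lower ratio in the gene body and 34.6% in the TSS window.

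Ser5 continued past the end of the coding transcript of Tlr4. The next 10 kb had 300 untreated, 142 LPS and 78 input tags (0.577, 0.469 to 0.707). Of the 14 peak regions of the record, 9 were found in untreated cells only, 4 in both libraries and 1 after LPS only. The highest counts past the coding transcript were in a region centred 21597 bp from the start, with 67 untreated and 23 LPS tags (0.418, 0.249 to 0.681). It had a peak in untreated cells only, so its ratio describes a region chosen for a high untreated count. Of the partners of TLR4, Ly96, the gene for MD-2, had 251 untreated and 194 LPS tags in its body (0.942, 0.777 to 1.14), and Cd14, the co-receptor that hands LPS to the receptor, had 620 and 1618 (3.18, 2.90 to 3.49).

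Tlr5 (chr1:184884919-184906175, plus strand), the flagellin receptor, had the lowest Ser5 densities of the 10. Its gene body had 74 untreated, 48 LPS and 92 input tags, which is 0.796 and 0.629 times input for the Ser5 libraries. Its TSS window had 25, 6 and 13 tags, a ratio of 0.292 (0.0981 to 0.730). The untreated peak over the start had 12 untreated, 2 LPS and 1 input tag, and a region 5467 bp inside the gene, with a peak in untreated cells only, had 18, 4 and 2. Both regions were chosen for a high untreated count. With so few tags the ratio of the Tlr5 TSS window had the widest interval of the 10 on a log scale.

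Of the endosomal receptors, Tlr3 (chr8:46481019-46495962, minus strand) was the only one above 1. Its gene body had 113 untreated, 163 LPS and 52 input tags, a ratio of 1.76 (1.37 to 2.25). Near the start the difference was within counting error, with 106 untreated and 108 LPS tags in the TSS window (1.24, 0.941 to 1.64). The difference lay further in: past the first 1 kb there were 22 untreated, 66 LPS and 48 input tags, a ratio of 3.66 (2.23 to 6.22), which took the later gene body from 0.453 to 1.66 times input. The density of the TSS window was 33.6 times that of the later gene body in untreated cells and 11.4 times after LPS. Peak regions found after LPS only were centred 704 bp (2 untreated and 15 LPS tags) and 1385 bp (no untreated and 12 LPS tags) from the start, next to the main peak with 99 and 92 tags. The counts at 704 and 1385 bp describe regions chosen for a high LPS count.

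Tlr7 and Tlr8 lie side by side on chromosome X, and both had less Ser5 after LPS near their starts. Tlr7 (chrX:163742861-163768490, minus strand) had 664 untreated, 313 LPS and 188 input tags in the gene body (0.574, 0.501 to 0.658) and 161, 69 and 15 in the TSS window (0.522, 0.388 to 0.697). Its main peak region, 2422 bp long and present in both libraries, had 313 untreated and 163 LPS tags (0.635, 0.522 to 0.769). The other 9 peak regions of Tlr7 were found in untreated cells only. Among them was one centred 11572 bp from the start with 41 untreated, 5 LPS and 8 input tags (0.149, 0.0458 to 0.376), and one 2486 bp before the start with 19, 3 and 4. These values describe regions chosen for a high untreated count.

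Tlr8 (chrX:163680626-163702261, minus strand) had 164 untreated, 107 LPS and 69 input tags in the gene body, and its ratio of 0.795 (0.617 to 1.02) reached 1 within counting error. In the TSS window it had 46, 16 and 10 tags (0.424, 0.224 to 0.763). Past the first 1 kb the ratio was 0.937 (0.707 to 1.24), an interval that overlaps that of the TSS window. A region centred 3797 bp from the start, found by its peak after LPS only, had 8 untreated and 18 LPS tags (2.74, 1.13 to 7.29), and the region over the start, found in untreated cells only, had 35 and 8 (0.279, 0.112 to 0.611). Each of these ratios describes a region chosen for a high count in the library that had the peak. Tlr8 was also the member with the most repeated sequence: 61.3% of the 30-base and 67.5% of the 45-base sequences of its body occurred once in the genome, whereas the other members had 86.0% to 99.8% at 30 bases. The tags were 30 bases long in the LPS library and 45 in the untreated one. Counting only tags whose first 30 bases occur once in the genome, the gene body ratio of Tlr8 was 0.815 (0.632 to 1.05).

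Tlr9 (chr9:106124929-106129207, plus strand) had 120 untreated, 55 LPS and 43 input tags in the gene body (0.559, 0.398 to 0.775) and 82, 51 and 31 in the TSS window (0.758, 0.524 to 1.09). Past the first 1 kb there were 52 and 23 tags (0.539, 0.315 to 0.897), an interval that overlaps that of the TSS window. A region centred 849 bp from the start had 56 untreated and 19 LPS tags (0.413, 0.232 to 0.707). One over the start, with a peak in untreated cells only, had 35 and 20 (0.696, 0.381 to 1.24). A peak region in both libraries, 3474 bp past the end and 2738 bp from Alas1, had 51 and 23 tags (0.550, 0.321 to 0.916). The locus is compact, and peak regions farther out lay as close as 469 bp to the end of Twf2 and 164 bp to Alas1. Neither these nor the region 3474 bp past the end can be assigned to Tlr9.

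Tlr13 (chrX:103338543-103355832, plus strand), the receptor for bacterial ribosomal RNA, had the lowest ratio of the 10. Its gene body had 486 untreated, 111 LPS and 89 input tags, which is 63.8, 17.8 and 11.8 normalized tags. The ratio was 0.278 (0.224 to 0.343), and 2.16% of the coding genes measured had a lower one. Its TSS window had 104 untreated, 16 LPS and 11 input tags (0.187, 0.103 to 0.319). Untreated Ser5 was at 9.35 times input in this window and LPS Ser5 at 1.75 (0.764 to 4.18). With libraries scaled to all tags, the LPS level at the start of Tlr13 was thus within counting error of input. This depends on the scaling. Scaled to the tags outside peaks, 9 members had LPS Ser5 at least 2-fold above input in this window, against 6 with all tags. That scaling raised the ratio to input at every gene, not at the members alone.

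Lower Ser5 after LPS was found in the flanks of Tlr13 as well as in the gene. Untreated peaks covered 33.8% of the gene body and LPS peaks 1.33%. Between 1 and 5 kb upstream there were 59 untreated, 21 LPS and 19 input tags (0.434, 0.250 to 0.725), and in the 5 kb after the end 68, 18 and 7 (0.323, 0.181 to 0.549). Of the 24 peak regions of the locus 21 were found in untreated cells only, and the single regions that follow are among them, so their ratios describe regions chosen for a high untreated count. Before the start, 7 peak regions lay between 2831 and 8084 bp upstream, of which the one centred 6601 bp away had 40 untreated, 5 LPS and 6 input tags (0.152, 0.0469 to 0.386). Inside the gene, regions centred 2831 and 17025 bp from the start had 25 and 23 untreated tags and no LPS tag. Past the end, a region centred 3754 bp away had 38 untreated and 3 LPS tags (0.0962, 0.0190 to 0.303). The nearest other gene on the upstream side, Atp7a, lay 9877 bp from the outermost of these regions.

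The 3 members on chromosome X, Tlr7, Tlr8 and Tlr13, all had ratios below 1. Over coding genes, the median gene body ratio was 0.887 on X (574 genes) and 0.873 on the autosomes (16812 genes). The TSS window medians were 0.812 and 0.831. X held 2.23% of untreated, 2.19% of LPS and 4.28% of input tags. Whether the chromosome contributed to the ratios of these members was not tested.

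Over all 10 loci, peaks of both libraries merged into 84 regions within 10 kb of the genes, leaving out regions that reach another annotated gene. Of these 20 had a peak in both libraries, 53 in untreated cells only and 11 after LPS only, or 23.8%, 63.1% and 13.1%. Merged in the same way, the 69850 peak regions of all chromosomes used were 34.4%, 35.0% and 30.7%. Of the 11 after LPS only, 5 were at Tlr2, 2 at Tlr3 and 1 each at Tlr1, Tlr4, Tlr8 and Tlr9. Of the 53 in untreated cells only, 21 were at Tlr13 and 9 each at Tlr4 and Tlr7. A region found in 1 library is chosen for a high count there, so the split describes the lists and does not measure the change. The untreated library was also the larger of the Ser5 libraries, with 53467 against 49371 peaks in all.

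**Figure D3:**
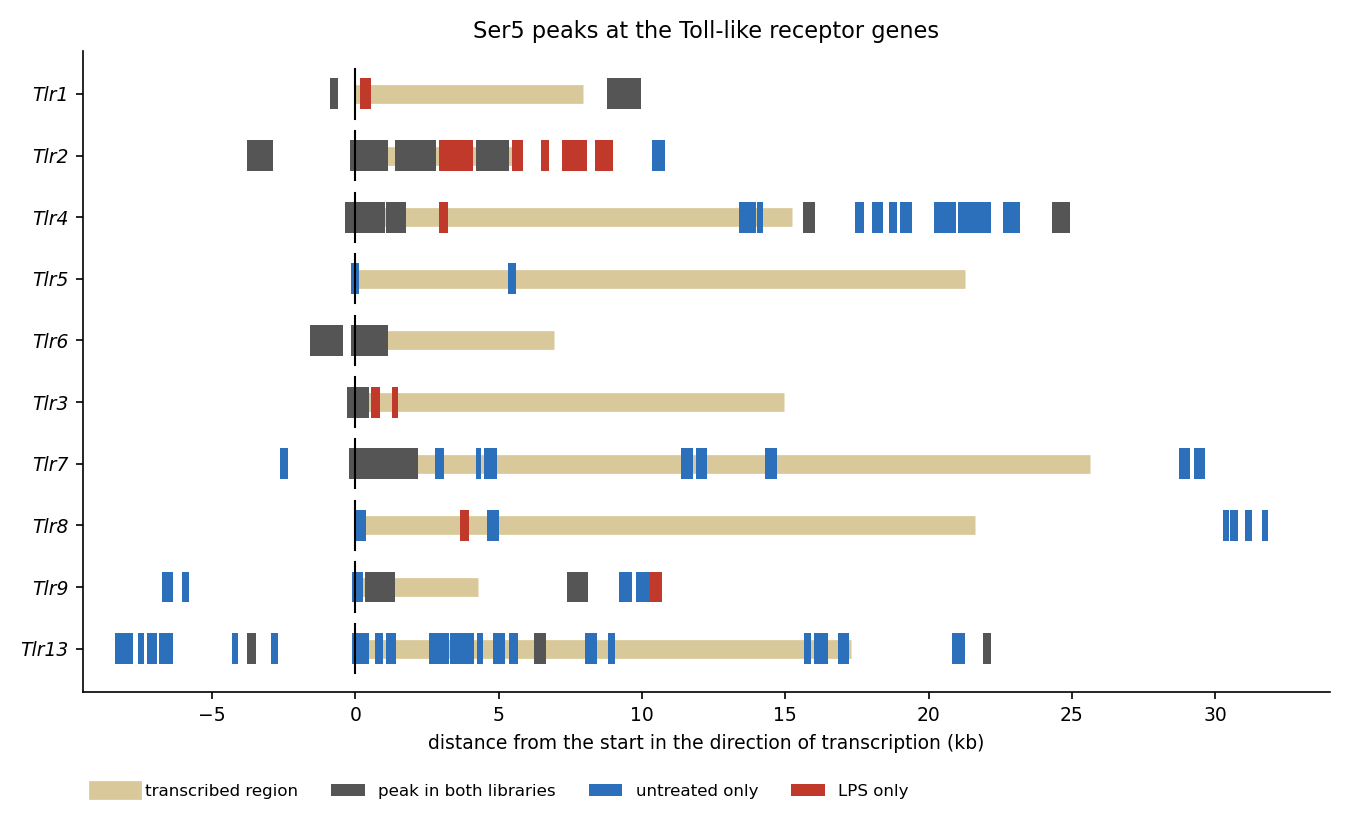
Ser5 peak regions at the 10 genes by distance from the start in kb, in the direction of transcription: regions with a peak in both libraries (grey), in untreated cells only (blue) and after LPS only (red), with the transcribed region as a pale bar (for Tlr4 the coding transcript). The 5 regions found after LPS only at Tlr2 lie over the gene and past its end, and 21 of the 24 regions at Tlr13 were found in untreated cells only.

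The genes that act with the receptors were read from a list of 6 role groups. Of 51 genes measured, 15 were at least 2-fold higher in the gene body after LPS, 3 were lower and 33 were neither, against 5.83% of coding genes higher and 11.3% lower, and the median ratio was 1.28. Among 9 transcription factor genes 5 were higher (Nfkb1, Nfkb2, Rel, Relb and Irf7) and 1 lower, with a median of 2.62. Of 8 genes that restrain the pathway 3 were higher (Tnfaip3, Nfkbia and Socs1) and none lower, and the median was 1.59. Of 6 adaptor genes 2 were higher (Ticam2 and Pik3ap1), and of 16 genes for kinases and ligases 4 were higher (Irak2, Irak3, Tbk1 and Ikbke), with none lower in either group. The groups for ligand handling (7 genes, 1 higher and 1 lower) and for receptor folding and traffic (5 genes, none higher and 1 lower) had medians of 0.942 and 0.904.

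The largest ratios of this list were those of Tnfaip3, the gene for the deubiquitinase A20, with 548 untreated and 3744 LPS tags (8.33, 7.61 to 9.12), and Nfkbia, the gene for the NF-kB inhibitor IκBα, with 1139 and 5769 (6.17, 5.79 to 6.58). Nfkb1, which encodes the p105 precursor of an NF-kB subunit, had 1510 and 6949 (5.61, 5.30 to 5.93). Irak2, a kinase recruited after MyD88, had 1183 and 5109 (5.26, 4.94 to 5.61). Rel had 328 and 1159 (4.31, 3.81 to 4.88) and Relb 291 and 745 (3.12, 2.72 to 3.59), both further NF-kB subunits, and Socs1, a suppressor of cytokine signalling, had 156 and 525 (4.10, 3.42 to 4.94). These ratios were higher than that of any receptor gene, of which Tlr2 was the highest at 2.40. With Cd14, these are the 8 genes of the list with the largest changes, and the others were named after their values were seen. The 3 lower genes were Lgmn, a lysosomal protease, with 624 untreated and 202 LPS tags (0.395, 0.335 to 0.463), Irf8, a myeloid transcription factor, with 1428 and 481 (0.411, 0.369 to 0.456), and Cnpy3, a chaperone of the receptors, with 360 and 123 (0.416, 0.337 to 0.512). Unc93b1, which carries the endosomal receptors out of the endoplasmic reticulum, had 1176 and 1127 (1.17, 1.08 to 1.27), and Myd88 had 533 and 783 (1.79, 1.60 to 2.00). Unc93b1, Myd88 and Ly96 did not reach the 2-fold rule.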

How the data were processed

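Ser5-phosphorylated Pol_II ChIP-Seq tags of untreated and LPS-treated macrophages and input DNA were analysed, 1 library each. The authors aligned trimmed reads to mm9 with Bowtie (version not given in the sources used here), retaining reads with a unique match and up to 2 mismatches. For each Ser5 library they called peaks with MACS, with the input as control and a p-value limit of 1e-05. The deposited tag files give positions and strands with duplicates kept. The score in the deposited peak files is minus 10 times log10 of the MACS p-value. Tags are 45 (untreated), 30 (LPS) and 36 (input) bases long, while the supplementary text of the study gives the trimming of the Ser5 libraries the other way round. The labels were kept, since LPS-induced genes were higher in the library labelled LPS.

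Tags on chromosomes 1 to 19 and X were counted by their 5′ end in each GENCODE M1 gene record (gene body) and within 1 kb of its start (TSS window), and scaled to 1000000 tags per library (normalized tags). Intervals are exact Poisson for counts and exact, conditional on the sum, for ratios, at 95%. A gene was called at 2-fold with at least 10 tags over the libraries compared, with 0 tags set to 0.5. The floor for 0 tags is 3 tags, or 0.394, 0.480 and 0.398 normalized tags. Values in parentheses after a ratio are its interval. RefSeq starts were placed on mm9 by sequence (8 of 10 members were in that table, of build GRCm38.p6), and promoter sequences were read from mm9. With 1 library per condition nothing was tested or paired. The members and the gene lists were chosen with earlier results of these data known. The rule for named pathway genes was the 8 with the largest change. Alternatives changed duplicates, tag shift, scaling, minimum, fold, windows, gene models and peak thresholds, or kept only tags whose first 30 bases occur once in the genome. Gene models and RefSeq starts were added after seeing the data. Python 3.11.15, numpy 2.4.6, pandas 2.3.3, scipy 1.17.1, numba 0.67.0 and matplotlib 3.10.9 were used, and counting and intervals were tested on simulated data.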

Additional observations from a re-analysis of the deposited data

How the results depend on the processing

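The counts of called members depended mainly on the fold and on the part of the gene. With a 1.5-fold rule 4 members were higher and 3 lower in the gene body, and 8 had LPS Ser5 above input there; with a 3-fold rule 0 were higher in the gene body and 0 in the TSS window, and 3 had untreated Ser5 above input in the gene body. Without the first 1 kb of the gene, which leaves fewer tags to count, LPS Ser5 was at least 2-fold above input at 1 member and untreated Ser5 at 3. Within 2 kb of the start 1 member was higher. Scaling to tags outside peaks multiplied LPS over untreated ratios by 1.08 (a log2 shift of 0.10) and left 9 members with LPS Ser5 at least 2-fold above input in the gene body, and the median ratio of coding genes became 0.941 (gene body) and 0.895 (TSS window). The other 78 values of these counts moved by at most 1.5 times. Shares of all coding genes are given for the main settings only. The counts under the alternatives therefore show how the calls moved and cannot be set against other genes. Of the ratios of single members, those of Tlr3 (3.66) and Tlr6 (2.65) without the first 1 kb moved beyond their counting intervals, and 120 did not. No ratio changed side of 1 except that of the Tlr6 TSS window, which ran from 0.935 (within 2 kb) to 1.40 (RefSeq start 882 bp inside the gene). The Tlr5 TSS window ran from 0.220 with 1 tag per position to 0.542 with the windows of all its transcripts. No paired analysis was possible because each condition had 1 library, and no replicate could be left out.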

Other observations

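With libraries scaled to all tags, the mouse genes Tlr11, for a receptor of profilin and flagellin, and Tlr12, its partner, were at or below input. Tlr11 had 1 untreated, no LPS and 14 input tags in the gene body, and Tlr12 had 5, 1 and 6. Neither had a Ser5 peak within 1 kb of its start in either library.

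The coding genes most like Tlr2 over 4 values (Ser5 density of the TSS window and the gene body in both libraries, log2 with 0.1 added) were Trim56, Cxcl16 and Bcl6, at distances of 0.14, 0.22 and 0.41. Their gene body ratios were 2.19, 2.05 and 1.70. Those most like Tlr13 were Hpgds, Tspan32 and Necab3, at 0.46, 0.49 and 0.59, with gene body ratios of 0.406, 0.188 and 0.263. The gene body densities that give these ratios were among the 4 values. Ratios near those of Tlr2 and Tlr13 thus follow from the choice.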
